A study of Mus musculus with 2 samples.

Results

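Contractile genes of striated muscle, smooth muscle and nonmuscle cells were described in primary niche astrocytes cultured from the dentate gyrus (DG) of adult WT and β-arr1 KO mice. The members were the gene symbols that begin with Myh, Myl, Tnnc, Tnni, Tnnt, Tpm, Actn, Cnn or Tagln, leaving out Cnnm, together with Acta1, Acta2, Actc1, Actg2, Des, Ckm, Ttn, Neb, Ryr1, Atp2a1, Myod1, Myog, Myf5, Myf6 and Lmod1. The families were chosen on measured values, because the WT and KO levels of several of them were known to differ, so every count and ratio between the genotypes below is a description and not a test. Of 16302 gene symbols listed in at least one of the tables, 61 had matching letters. Mylip, which encodes a ubiquitin ligase, and Tpmt, which encodes a methyltransferase, matched by name only and were left out, which left 59 contractile genes. These were grouped by the muscle type they are best known for as 36 striated, 10 smooth and 13 nonmuscle genes, and 49 of them were listed in WT and 55 in KO.

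The study asked which transcripts of niche astrocytes change when β-arrestin 1 (β-arr1, gene Arrb1), an adaptor of G protein-coupled receptors that also acts in the nucleus, is missing. RNA sequencing (RNA-seq) was made of 1 WT and 1 β-arr1 KO library, both of pooled cDNA, from mice of C57BL/6 strain by the labels and a C57BL/6J background by the study's methods, with no drug or other agent named for either. The KO mice lacked β-arr1 in all cells and not only in astrocytes, the cultures were grown in serum on a coated surface and shaken to remove loosely attached cells, and samples for RNA-seq and qRT-PCR were taken from 3 mice per genotype. How these mice went into the libraries, and their sex, are not given in the sources used here. As each genotype was 1 library, there is no replicate check of any difference, and the 95% intervals given after ratios cover counting error only.

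Muscle contracts when myosin heavy chains, each carrying light chains, pull on actin filaments. In striated muscle, calcium reaches the filament through the troponin complex, whose subunits bind calcium (Tnnc), inhibit actin (Tnni) and hold tropomyosin (Tnnt), and the filaments are ordered in sarcomeres by titin, nebulin and α-actinin. Smooth muscle and nonmuscle cells have no troponin and switch myosin on by phosphorylation of its light chain, and astrocytes use the nonmuscle set, and Acta2 in culture, for stress fibres and movement.

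The level of each gene is its FPKM, the number of sequenced fragments per kilobase of transcript and normalised to the fragments mapped, so levels can be compared between genes. A gene was analysed where either library gave it 1 FPKM or more, and a ratio of β-arr1 KO vs. WT above 1.5 was called higher in KO and below 0.667 lower in KO, the limits used by the study. Arrb1 was at 7.62 FPKM in WT against 2.72 FPKM in KO (ratio 0.358, interval 0.30 to 0.425), and Actb at 2090.0 and 2461 FPKM (1.18). All 9 astrocyte markers were above the minimum in both libraries, with Gfap at 189 and 192 FPKM, and 4 of them were higher in KO and none lower, among them S100b at 29.3 and 51.7 FPKM, Aldoc at 13.5 and 21.6 FPKM and Aqp4 at 7.05 and 13.5 FPKM. The WT row of S100b overlaps that of Dip2a. From the step size of low values the libraries were estimated to hold 9380000 (WT) and 9520000 (KO) mapped fragments. Of 4 Y chromosome genes, 4 were listed in KO, summing to 8.44 FPKM, and 0 in WT, while Xist was at 39.4 FPKM in WT against 29.7 FPKM in KO, so Y chromosome transcripts moved with genotype, and the part of sex in the values below was not tested. Across all 12646 genes analysed, 17.8% were past one of the limits, 9.56% higher in KO and 8.28% lower in KO. This share takes in genes listed in WT alone or KO alone. It is larger than the share of changed genes that the study reported, whose gene filter is not given in the sources used here.

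Of the 59 contractile genes, 44 reached the minimum, and 19 of these were higher in KO, 2 were lower in KO and 23 lay within the limits. In the striated group 19 of 21 analysed genes were higher in KO and 1 was lower, in the smooth group 0 of 10 were higher and 1 was lower, and in the nonmuscle group all 13 lay within the limits. The same families were what the members were chosen on, so nothing is read from these counts against the background of 9.56%. Among the genes analysed and listed in both tables, the median ratio was 10.3 for 16 striated genes, 0.881 for 10 smooth genes, 1.04 for 13 nonmuscle genes and 1.01 for 12171 genes in all.

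In absolute level the groups were far apart. The striated genes summed to 49.4 FPKM in WT against 279.5 FPKM in KO, of which Des alone made up 29.7 and 41.9 FPKM, and without Des the sums were 19.6 and 238 FPKM. The smooth genes summed to 8074 and 7308 FPKM and the nonmuscle genes to 3322 and 3441 FPKM. The striated set thus made up 0.0132% of the summed FPKM of the WT table and 0.0749% of the KO table, while all contractile genes together made up 3.06% and 2.95%. In a bulk culture, a small number of cells with high levels and many cells with low levels cannot be told apart, nor can fewer cells of a type and less RNA per cell.

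**Figure D1:**
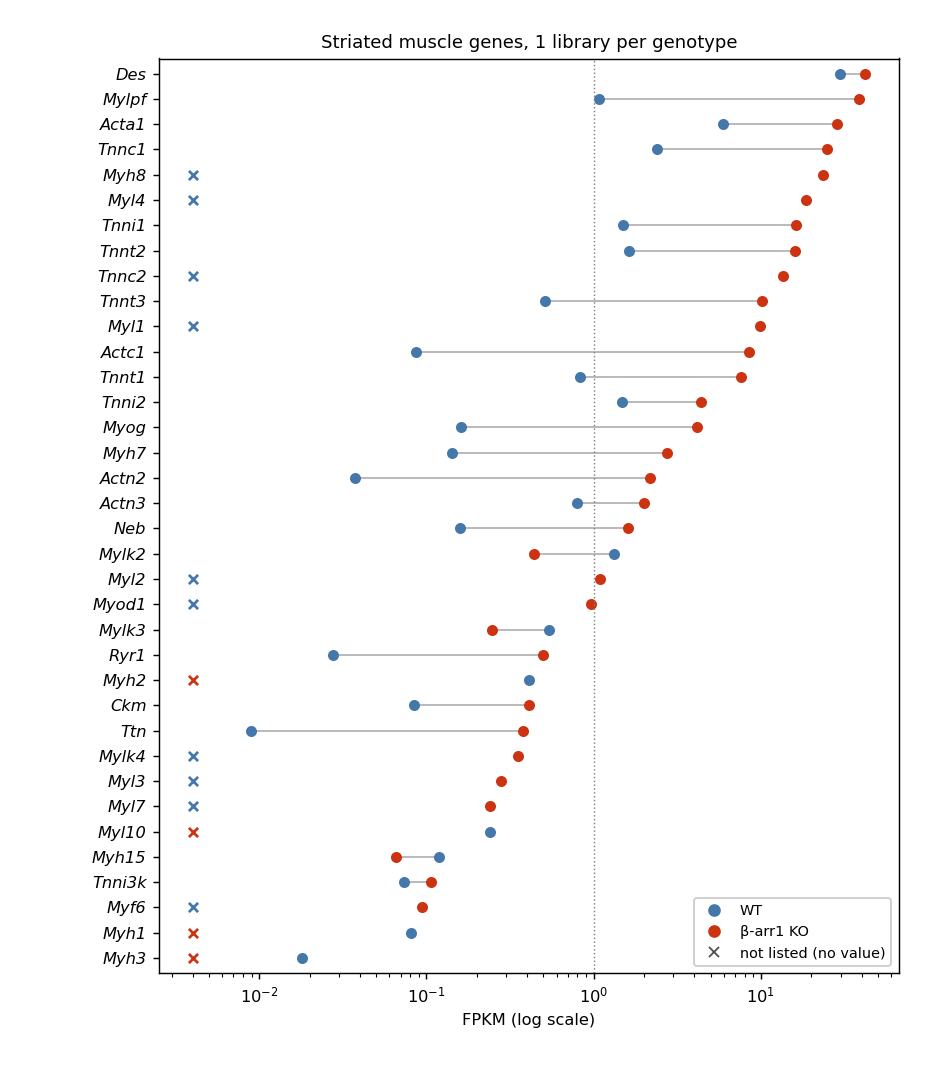
Level of each of the 36 striated genes in the WT (blue) and β-arr1 KO (red) library, in FPKM on a log axis, ordered by the higher level, with crosses at the left edge for a library in which the gene was not listed and a dotted line at 1 FPKM. KO points lie to the right of WT points for most genes, while WT lies above KO in Mylk2, Mylk3 and Myh15, and Myh1, Myh2, Myh3 and Myl10 are listed in WT alone.

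The promoters of 4 of the actin and light chain genes that the account turns on are shown because Acta1, Actc1 and Mylpf were higher in KO while Acta2, a close relative of both actins, was level in both libraries. Each is the 250 bases before the transcript start from the RefSeq promoter table (GRCm38.p6), written 5′ to 3′ on the gene's own strand, with CArG boxes (the SRF binding motif), CArG-like boxes and CAGCTG (an E-box that reads the same on both strands) in capitals. A CArG box was searched as CC, then A or T at each of 6 bases, then GG, and a CArG-like box may also hold 1 G or C among the 6, a search added after the values were seen. They lie at chr8:123894776-123895025 (minus strand) for Acta1, chr2:114052876-114053125 (minus) for Actc1, chr7:127211358-127211607 (plus) for Mylpf and chr19:34255374-34255623 (minus) for Acta2.
Acta1: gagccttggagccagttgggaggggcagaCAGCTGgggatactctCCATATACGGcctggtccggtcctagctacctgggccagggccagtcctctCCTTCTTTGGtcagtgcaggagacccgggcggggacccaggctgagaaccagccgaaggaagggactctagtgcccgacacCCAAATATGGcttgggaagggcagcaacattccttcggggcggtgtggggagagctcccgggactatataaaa
Actc1: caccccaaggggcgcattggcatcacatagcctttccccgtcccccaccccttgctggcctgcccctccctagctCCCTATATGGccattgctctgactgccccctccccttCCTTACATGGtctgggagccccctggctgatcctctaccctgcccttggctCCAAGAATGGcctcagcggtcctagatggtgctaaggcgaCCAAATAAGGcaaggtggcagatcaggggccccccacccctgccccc
Mylpf: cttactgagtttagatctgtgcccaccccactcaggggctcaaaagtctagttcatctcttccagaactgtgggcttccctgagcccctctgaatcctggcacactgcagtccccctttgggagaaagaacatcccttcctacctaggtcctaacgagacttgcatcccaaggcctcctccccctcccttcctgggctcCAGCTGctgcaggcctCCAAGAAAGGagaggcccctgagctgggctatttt
Acta2: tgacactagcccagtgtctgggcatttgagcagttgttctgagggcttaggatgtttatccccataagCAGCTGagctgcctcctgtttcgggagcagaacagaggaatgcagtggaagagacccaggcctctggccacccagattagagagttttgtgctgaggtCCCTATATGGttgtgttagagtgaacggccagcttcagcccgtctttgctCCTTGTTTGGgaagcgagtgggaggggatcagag

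The CArG box began 73 bases before the start in Acta1 and 47 bases before it in Actc1, and Mylpf and Acta2 had no exact CArG box in this window. CArG-like boxes began 84 and 34 bases before the start in Acta2, 35 in Mylpf, 205 and 154 in Acta1 and 175, 138 and 87 in Actc1, so each of the 4 promoters held at least 1. CAGCTG began 221 bases before the start in Acta1, 51 in Mylpf and 182 in Acta2. All distances are counted from the start in the promoter table, which is not always the edge of the deposited row. In mm9 the Mylpf window ends at 134355121, next to its row start at 134355122. The lowest bases of the Acta1 and Actc1 windows, 126418676 and 113878612, lie beyond their WT row ends at 126418643 and 113878547. The Acta2 window (34329864-34330113) lies mostly inside its own WT row, which ends at 34330094. Of the 19 striated genes higher in KO, 15 had promoters in the table, 19 promoters in all. In these 250 bases an exact CArG box was found on either strand in 2 of the 19 (10.5%), in 1 of 7 smooth promoters (14.3%), in 2 of 15 nonmuscle promoters (13.3%) and in 1.47% of all 32851 promoters. With CArG-like boxes taken in, the numbers were 3 (15.8%), 2 (28.6%) and 5 (33.3%), against 8.59% of all promoters. CAGCTG was found in 7 (36.8%), 3 (42.9%) and 3 (20%) of the same sets and in 13% of all promoters, and CATTCC, the core of the TEAD motif, in 5 (26.3%), 4 (57.1%), 3 (20%) and 12.6%. The loose E-box CANNTG, which also takes in every CAGCTG, was in 17 (89.5%) of the striated set and 66.2% of all promoters. The MEF2 box was in 0 of the 19 and in 0.508% of all promoters. A match is a description of the letters and not a site of binding.

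The myogenic regulatory factors are the transcription factors that start the skeletal muscle programme. Myog (myogenin), which acts at the onset of muscle cell differentiation, was at 0.160 FPKM in WT against 4.12 FPKM in KO (25.7, interval 6.77 to 218), values that rest on an estimated 2 and 52 fragments. Myod1, a determination factor, was not listed in WT and was at 0.968 FPKM in KO (about 16 fragments), just under the minimum. Myf6 was not listed in WT and was at 0.0943 FPKM in KO, the worth of about 1 fragment, and Myf5 was listed in neither library. The wide interval of Myog comes from its 2 WT fragments, and its KO level was modest, rank 9574 of 15388 symbols.

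All 7 listed troponin subunits were higher in KO, and both the fast skeletal and the slow skeletal or cardiac sets were. The fast set summed to 1.99 FPKM in WT against 27.9 FPKM in KO (ratio of sums 14.1), and the slow and cardiac set to 6.32 and 64.5 FPKM (10.2). Of the calcium-binding subunits, Tnnc1 (slow and cardiac) was at 2.38 FPKM in WT against 24.7 FPKM in KO (10.4, interval 5.76 to 20.6). Tnnc2 (fast) was not listed in WT and was at 13.5 FPKM in KO, from about 72 fragments. The calcium sensor of each fibre type was therefore listed above 10 FPKM in KO, and only the slow one was listed in WT.

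The inhibitory subunits differed in size of ratio. Tnni1 (slow skeletal) was at 1.5 FPKM in WT against 16.3 FPKM in KO (10.9, interval 6.20 to 20.9), although its row began further upstream in WT. Tnni2 (fast skeletal) was at 1.48 and 4.36 FPKM (2.95, interval 1.41 to 6.74), a lower ratio with an interval that overlaps that of Tnni1. Cardiac Tnni3 was listed in neither library, and its locus lay inside the Dnaaf3 row in WT, so it has no level here.

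The tropomyosin-binding subunits were all higher in KO. Tnnt1 (slow skeletal) was at 0.824 FPKM in WT against 7.56 FPKM in KO (9.17, interval 4.21 to 23.7). Tnnt2 (cardiac and embryonic) was at 1.62 and 15.9 FPKM (9.86, interval 5.69 to 18.5), and Tnnt3 (fast skeletal) at 0.508 and 10.1 FPKM (19.8, interval 7.49 to 74.4). Tnnt3 overlapped another listed row in both libraries, and with the rows summed its ratio was 6.46. The intervals of the 3 subunits overlap, so their ratios are not ordered by these data. In KO, Tnni1 and Tnnt2 lay 25344 bases apart on chromosome 1, and Tnni2 and Tnnt3 54430 bases apart on chromosome 7, and the 19 striated genes higher in KO were spread over 9 chromosomes.

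The striated actins form the thin filament, and the α-actinins Actn2 and Actn3 anchor it at the Z-disc. Acta1 (skeletal α-actin) was at 5.95 FPKM in WT against 28.4 FPKM in KO (4.78, interval 3.69 to 6.27, about 70 and 354 fragments). Actc1 (cardiac α-actin) was at 0.0860 FPKM in WT against 8.51 FPKM in KO (99.0, interval 17.4 to 3945). The Actc1 ratio is set by about 1 fragment in WT against 108 in KO, and it fell to 8.75 when 1 FPKM was added to both levels. Actn2 was at 0.0372 and 2.17 FPKM (58.4, interval 10.1 to 2344), with about 1 and 59 fragments, and Actn3, the fast fibre form, at 0.796 and 2.01 FPKM (2.53, interval 1.48 to 4.47). Acta1 was thus the most firmly measured of the 4, with the smaller of the actin ratios.

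The coding sequences of the muscle actins are close, with 85.4% identical bases between Acta1 and Acta2, 86.2% between Acta1 and Actc1 and 82.5% between Acta2 and Actc1 over 1134 bases. No stretch of 100 bases was shared between their annotated transcripts. Acta2 stood at 2469 FPKM or more in both libraries, while the ratios of Acta1 and Actc1 were unlike its ratio of 0.996. Of the summed level of the 4 muscle actins (Acta1, Actc1, Acta2 and Actg2), the striated pair made up 0.235% in WT and 1.45% in KO.

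Striated myosin light chains had the largest ratio of sums of the role groups, 1.32 FPKM in WT against 68.6 FPKM in KO (52.0). Mylpf, the fast skeletal regulatory light chain, was at 1.08 FPKM in WT against 38.7 FPKM in KO (35.9, interval 16.2 to 98.8), the highest KO level of a striated gene after Des. Its rank by level was 12003 of 15362 symbols in WT and 1877 of 15388 in KO. Myl4 (embryonic and atrial) at 18.5 FPKM, Myl1 (fast essential light chain) at 9.82 FPKM and Myl2 (slow and ventricular) at 1.09 FPKM were listed in KO and not in WT, where no other row lay over their loci, and the KO row of Myl4 overlaps that of Cdc27. Myl3 at 0.279 FPKM and Myl7 (atrial) at 0.241 FPKM were also listed in KO alone, and Myl10 at 0.240 FPKM in WT alone, each from about 1 or 2 fragments. Of the light chains above the minimum in KO, Mylpf and Myl1 are thus fast skeletal forms. Myl4 and Myl2 are shared between muscle types, and Myl2 rests on about 8 fragments, so no cardiac type is read from them.

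The striated heavy chains could not be separated from each other, because the deposited rows merge neighbouring genes. The skeletal heavy chain genes Myh3, Myh2, Myh1, Myh4, Myh8 and Myh13 lie in a row on chromosome 11. KO had 1 row over this whole cluster, named Myh8 (mm9, chr11:66891802-67185004), at 23.4 FPKM. WT had 3 rows there, Myh2 at 0.413 FPKM (spanning Myh1, Myh4 and Myh8), Myh1 at 0.0806 FPKM and Myh3 at 0.0180 FPKM, summing to 0.512 FPKM. The cluster was thus higher in KO as a whole, while the names Myh1, Myh2 and Myh3 in WT and Myh8 in KO say nothing of which heavy chain was made. Myh7, the slow and β-cardiac heavy chain, was at 0.142 FPKM in WT against 2.75 FPKM in KO (19.3), in a row that also spans Myh6. Myh15 was at 0.119 and 0.0661 FPKM, under the minimum, and Myh7b was not listed.

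Giant scaffold, calcium release and energy genes were low in FPKM in both libraries, though the long transcripts of Neb, Ttn and Ryr1 gave them 72 or more estimated fragments in KO. Neb (nebulin, the ruler of the thin filament) was at 0.158 FPKM in WT against 1.61 FPKM in KO (10.2, interval 7.13 to 15.1), from about 33 and 343 fragments. Ttn (titin, the spring of the sarcomere) was at 0.00897 and 0.379 FPKM (42.2, interval 22.0 to 93.1), from about 9 and 385 fragments, and so stayed under the minimum of 1 FPKM with more KO fragments than Acta1. Ryr1, the calcium release channel of skeletal muscle, was at 0.0276 and 0.497 FPKM (18.0, interval 6.74 to 68.0, about 4 and 72 fragments). Ckm, muscle creatine kinase, was at 0.0842 and 0.409 FPKM (4.85, interval 0.543 to 229), which counting error alone spans, and Atp2a1, the fast calcium pump, was not listed. With a minimum of 20 estimated fragments in place of 1 FPKM, a choice made after the values were seen, 20 of 23 striated genes were higher in KO (87.0%) against 9.43% of 12375 genes in all. This count takes in merged heavy chain rows, which have no transcript length of their own. The skeletal heavy chain cluster counts in it as higher under Myh8 and as lower under Myh2.

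Des and Mylk2 were the analysed striated genes not higher in KO. Des (desmin), the intermediate filament of muscle that mural cells also make, was at 29.7 FPKM in WT against 41.9 FPKM in KO (1.41, interval 1.29 to 1.55), within the limits and already the highest striated gene in WT. Of the light chain kinases, Mylk2 (skeletal muscle kinase) was at 1.32 FPKM in WT against 0.440 FPKM in KO (0.334, interval 0.157 to 0.660), the only striated gene lower in KO above the minimum, and Mylk3 (cardiac kinase) at 0.542 and 0.246 FPKM (0.454, interval 0.171 to 1.10). Mylk4 was listed in KO alone at 0.354 FPKM, so the 3 kinases did not share a direction, and the interval of Mylk3 includes 1. Tnni3k, a cardiac kinase named for its binding to troponin I, was at 0.0730 and 0.106 FPKM.

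The 15 striated genes under the minimum reached at most 0.968 FPKM. Of these, 5 were listed in KO alone, 4 in WT alone and 6 in both, and of those 6 the KO level was above the WT level in 4 and below it in 2. The 4 listed in WT alone included the 3 heavy chain names that KO carried under Myh8. Of the 21 striated genes above the minimum, 8 reached 1 FPKM in WT.

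**Figure D2:**
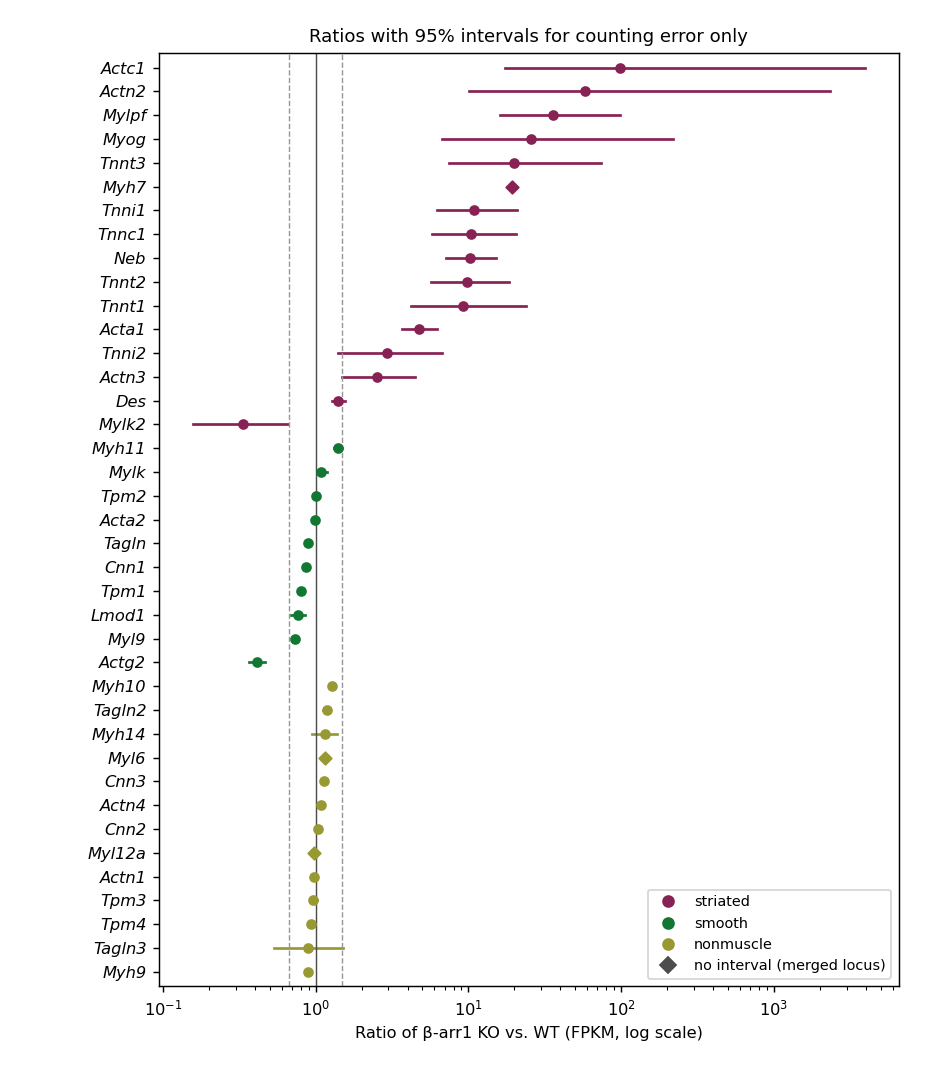
Ratio of β-arr1 KO vs. WT on a log axis for the 39 contractile genes analysed and listed in both tables, coloured by group, with lines for 95% intervals of counting error, diamonds for merged loci without an interval and dashed lines at 1.5 and 0.667. Striated ratios reach 99.0, and smooth and nonmuscle ratios lie between 0.416 and 1.4.

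Several smooth muscle genes were among the most abundant transcripts of both cultures. Others ranked far lower, with Myh11, Lmod1 and Mylk at ranks 1761, 3118 and 3764 in WT and 1231, 4041 and 3531 in KO. Tagln (transgelin, SM22α, an actin-binding protein) was at 2915 FPKM in WT against 2597 FPKM in KO (0.891, interval 0.878 to 0.904), rank 7 in WT and rank 5 in KO. Acta2 (smooth muscle α-actin) was at 2478 and 2469 FPKM (0.996, interval 0.982 to 1.01), rank 11 and rank 6. Tpm1 (α-tropomyosin, also made in striated muscle) was at 1270.0 and 1024 FPKM (0.807), with a WT row that extends over Lactb. Tagln, Acta2 and Tpm1 were thus all within the limits, with Acta2 nearly level and Tpm1 and Tagln below 1 in ratio.

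The other actin-binding smooth genes were all within the limits. Cnn1 (calponin) was at 265 FPKM in WT against 231 FPKM in KO (0.872, with a KO row that extends over Ecsit). Lmod1 (leiomodin, which seeds actin filaments) was at 23.8 and 18.3 FPKM (0.770, interval 0.694 to 0.853). Tpm2 (β-tropomyosin, also made in striated muscle) was at 516 and 517 FPKM (1.00, interval 0.973 to 1.03). Cnn1 and Lmod1 were thus below 1 in ratio, and Tpm2 was level.

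Actg2 (γ-actin of visceral smooth muscle) was the exception, at 84.0 FPKM in WT against 34.9 FPKM in KO (0.416, interval 0.368 to 0.468), the only smooth gene past a limit. It was well measured, with about 900 and 397 fragments. The 3 other muscle actins were higher in KO or level, so the WT to KO direction differed within this small family.

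The motor genes of smooth muscle were split in direction. Myh11 (smooth muscle myosin heavy chain) was at 40.4 FPKM in WT against 56.6 FPKM in KO (1.4, interval 1.33 to 1.48), close to the upper limit. Myl9 (regulatory light chain) was at 461 and 338 FPKM (0.734, interval 0.70 to 0.769), close to the lower limit. Mylk (the smooth muscle light chain kinase) was at 19.5 and 21.4 FPKM (1.09, interval 1.02 to 1.18). Heavy chain and light chain thus differed in opposite directions, neither past a limit.

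**Figure D3:**
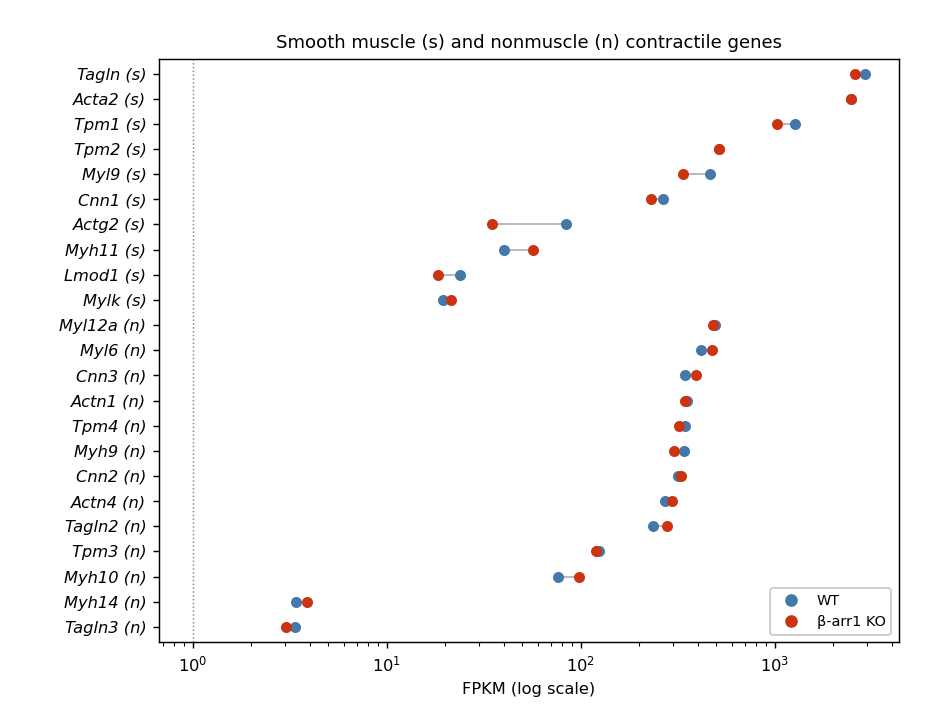
Level of the 10 smooth (s) and 13 nonmuscle (n) genes in the WT (blue) and β-arr1 KO (red) library, in FPKM on a log axis, with a dotted line at 1 FPKM. Points of the 2 libraries nearly coincide for most genes, and the widest gap is that of Actg2, 84.0 FPKM in WT against 34.9 FPKM in KO.

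Nonmuscle genes, which serve stress fibres, cell movement and division, had ratios between 0.893 and 1.29. Of the nonmuscle myosin II heavy chains, Myh9 (IIA) was at 340.0 FPKM in WT against 304 FPKM in KO (0.893, interval 0.877 to 0.910), Myh10 (IIB) at 76.1 and 97.8 FPKM (1.29, interval 1.24 to 1.33) and Myh14 (IIC) at 3.39 and 3.89 FPKM (1.15, interval 0.948 to 1.39). Myh9 had the lowest and Myh10 the highest ratio of the group, and their intervals do not overlap. The light chain rows Myl12a (spanning Myl12b) at 494 and 481 FPKM (0.975) and Myl6 (spanning Myl6b) at 415 and 476 FPKM (1.15) were the most abundant of the group.

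The actin crosslinkers and binding proteins were as close. Actn1 and Actn4, the nonmuscle α-actinins, were at 354 and 272 FPKM in WT and 343 and 294 FPKM in KO (0.970 and 1.08). Of the calponins, Cnn2 was at 316 and 329 FPKM (1.04) and Cnn3, the acidic calponin, at 344 and 391 FPKM (1.14). None of these differed by more than the limits.

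The remaining transgelins and tropomyosins behaved alike. Tagln2 was at 237 FPKM in WT against 279 FPKM in KO (1.18), and Tagln3, a neuronal transgelin, at 3.38 and 3.03 FPKM (0.898, interval 0.534 to 1.51). Tpm3 was at 124 and 120.0 FPKM (0.966) and Tpm4 at 343 and 320.4 FPKM (0.934). Of 100-base windows of the Tpm3 transcript, 45.7% also occur in Tpm3-rs7, which was not listed, so reads of the pair may be split.

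Against these abundant relatives the striated forms stayed a small part of each protein family in both libraries. Striated heavy chains made up 0.168% of the summed FPKM of myosin heavy chains in WT and 5.37% in KO, and striated light chains 0.0961% and 5.03% of light chains. Of the α-actinins, Actn2 and Actn3 made up 0.133% in WT and 0.653% in KO.

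**Figure D4:**
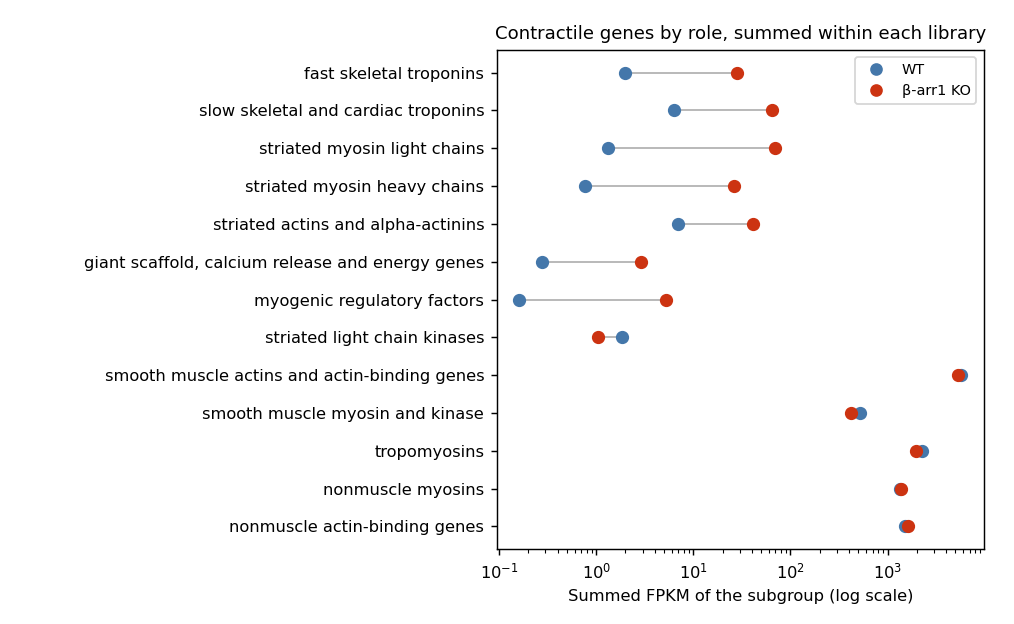
Summed FPKM of the contractile genes by role in the WT (blue) and β-arr1 KO (red) library, on a log axis. The striated light chains go from 1.32 to 68.6 FPKM and the striated heavy chains from 0.773 to 26.2 FPKM, the striated light chain kinases go down, and the smooth and nonmuscle sums of 416 FPKM and more nearly coincide.

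Other genes of the sarcomere and of excitation-contraction coupling were read from a list of 45, of which 41 were listed and 23 analysed. Of these 23, 14 were higher in KO and 0 lower, with a median log2 ratio of 1.30 (0.1 FPKM added to both levels) beside 0.02 for all genes. The shares of all genes analysed to set beside this list and each one below are 9.56% higher and 8.28% lower in KO. Genes under 1 FPKM in WT entered the 23 through KO alone. With 1 FPKM required in both libraries, 6 of 15 were higher, beside 750 of 11622 genes in all. Casq1 and Casq2, which store calcium in the sarcoplasmic reticulum, were at 6.03 and 2.59 FPKM in WT and 16.7 and 7.74 FPKM in KO. Mybph, a myosin-binding protein, was listed in KO alone at 5.44 FPKM, in a row that overlaps that of Adora1. Thin filament cap Tmod1 was at 6.12 and 11.4 FPKM (1.86) and the stress-responsive titin partner Ankrd1 at 22.3 and 35.0 FPKM (1.56). The Tmod1 row overlaps that of Tstd2 in both libraries. Not all were past a limit: the small heat shock protein Cryab, the most abundant of the list and made by glia, was at 507 FPKM in WT against 409.9 FPKM in KO (0.808). Jph2 was at 13.1 and 18.9 FPKM (1.44), within the limits, with an interval of 1.28 to 1.61 that takes in the upper limit. Xirp1 was level, at 2.10 and 2.09 FPKM (0.992).

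Of the myogenic regulation and fusion list, 17 of 28 genes were analysed, 7 of them higher and 1 lower in KO (median log2 ratio 0.49). With 1 FPKM required in both libraries, 2 of 11 were higher and 0 lower. Mef2c, a partner of the myogenic factors, was at 4.81 FPKM in WT against 7.44 FPKM in KO (1.55, interval 1.33 to 1.80), and Megf10, a receptor of muscle progenitors and astrocytes, at 6.89 and 11.8 FPKM (1.71, interval 1.53 to 1.92). The most abundant of the list, Ncam1 and Itga7, were at 63.4 and 28.1 FPKM in WT and 76.0 and 39.5 FPKM in KO, within the limits. Under 5 FPKM, Tmem8c (myomaker, which fuses muscle precursors) was at 0.101 and 4.26 FPKM (42.3, interval 7.26 to 1705), and the acetylcholine receptor subunits Chrna1 and Chrng were at 2.65 and 2.66 FPKM in KO, with Chrna1 at 0.382 FPKM and Chrng not listed in WT. Pax3, a factor of muscle precursors and neural crest, was at 1.84 FPKM in WT against 0.0636 FPKM in KO (0.0346).

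Muscle energy metabolism genes were mostly level. Of 10 analysed from a list of 15, 2 were higher and 1 lower in KO (median log2 ratio 0.23). At 1 FPKM in both libraries, 1 of 9 was higher and 1 lower. Mb (myoglobin, the oxygen store of muscle) was at 0.289 FPKM in WT against 7.97 FPKM in KO (27.5, interval 7.36 to 232). Atp2a2, the widely made calcium pump, was at 93.3 and 112 FPKM (1.20), and the glycolytic enzyme Pfkm at 30.9 and 35.5 FPKM (1.15). The rows of Mb and Pfkm overlap those of Apol6 and Senp1 in both libraries.

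The regulators of smooth muscle and nonmuscle contraction were largely level too. Of the smooth muscle list of 30, 26 were analysed, 4 higher and 0 lower in KO (median log2 ratio 0.14). Ppp1r12b, a myosin phosphatase subunit, was at 4.75 FPKM in WT against 13 FPKM in KO (2.73, interval 2.43 to 3.07), Ramp1, a subunit of the CGRP receptor, at 8.55 and 28.1 FPKM (3.29, interval 2.79 to 3.89), and Kcnmb1, a potassium channel subunit, at 4.2 and 6.32 FPKM (1.51). The Kcnmb1 row overlaps that of Kcnip1 in both libraries. Myocd (myocardin), the SRF coactivator of muscle, was at 1.21 and 2.12 FPKM (1.76, interval 1.26 to 2.48), beside Srf itself at 20.6 and 19.9 FPKM (0.967). Cald1 (caldesmon), the most abundant of the list, was at 560.1 and 663 FPKM (1.18), and the LIM protein Csrp1 at 309 and 255 FPKM (0.825), both within the limits.

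Of the nonmuscle contractility and stress fibre list, all 36 genes were analysed, 2 were higher in KO (Ankrd1 and Sept7) and 0 lower (median log2 ratio 0.17). Sept7, a septin of the cell cortex, was at 137 FPKM in WT against 209.9 FPKM in KO (1.54). The most abundant of this list were Actb, given above, and Thbs1 (thrombospondin), at 1294 and 1732 FPKM (1.34).

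Markers of other cell types that such a culture could hold are given beside these results. Of 7 cardiomyocyte genes, 3 were analysed and all were higher in KO, but Actc1 and Tnnt2 are members themselves, Nppb, a natriuretic peptide, was at 2.07 and 4.49 FPKM (2.17, interval 1.04 to 4.86), and Ryr2, the cardiac calcium release channel, was at 0.0946 FPKM in WT against 0.141 FPKM in KO. Of 6 muscle progenitor genes, Pax7, the marker of satellite cells, was listed in WT alone, at 0.0510 FPKM, Cdh15 was at 0.0392 and 0.458 FPKM, and the list as a whole summed to 16.1 and 16.8 FPKM. Of the pericyte and mural markers 0 of 4 analysed were higher and 1, Rgs5 at 5.83 and 3.58 FPKM, was lower, with sums of 44.0 and 47.9 FPKM, most of it Cspg4 at 24 and 33.8 FPKM. Pdgfrb and Kcnj8, also on the pericyte and mural list, were listed in neither library and have no level here. The part of these cell types in the levels of the contractile genes was not tested.

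Of 5 fibroblast and meningeal genes analysed, 4 were lower in KO and 1 higher, and the list of 7 summed to 611 FPKM in WT against 322 FPKM in KO. Among them Col1a1 was at 420.5 and 237 FPKM (0.564), Col1a2 at 92.3 and 34.3 FPKM (0.371), Col3a1 at 88.3 and 43.3 FPKM (0.490) and Dcn at 6.11 and 0.831 FPKM (0.136), and Pdgfra, which oligodendrocyte precursors also make, was at 3.12 and 6.03 FPKM (1.93). Of 6 oligodendrocyte lineage genes analysed, 4 were higher and 0 lower, with sums of 61.5 and 92.9 FPKM and Olig1 and Olig2 at 32.6 and 6.19 FPKM in WT and 56.0 and 13.1 FPKM in KO. Of 4 endothelial genes 1 was higher, Pecam1 at 3.03 and 5.22 FPKM, and 1 lower, Cdh5 at 31.8 and 16.1 FPKM, and of 6 microglial genes and 1 neuronal gene all were within the limits. Microglial Csf1r stood at 146 and 135 FPKM, the highest of its list, in cultures labelled as astrocytes. Itgam was at 34.9 and 30.4 FPKM and P2ry12, the lowest, at 2.67 and 2.46 FPKM. Whether the Csf1r row also covers a neighbouring gene was not checked. The TGF-beta ligands, receptors and targets, which drive Acta2 and Tagln in many cells, had 0 of 12 higher and 1 lower, Tgfbr3 at 3.21 and 1.99 FPKM (0.620), with Tgfb3 at 103 and 84.3 FPKM (0.817). The part of these cell types and of TGF-beta signals in the contractile genes was not tested.

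**Figure D5:**
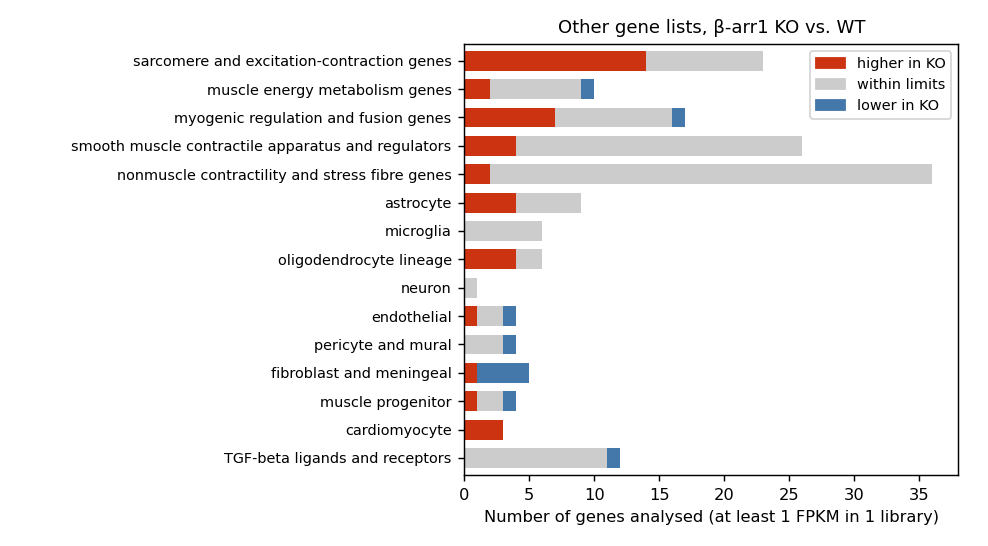
Number of genes analysed in each other list, split into higher in KO (red), within the limits (grey) and lower in KO (blue). Of the sarcomere and excitation-contraction genes 14 of 23 are higher, against 2 of 36 in the nonmuscle contractility and stress fibre list, and 4 of 5 fibroblast and meningeal genes are lower.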

How the data were processed

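RNA-seq of 1 WT and 1 β-arr1 KO culture of DG astrocytes was analysed. According to the study's methods and the labels, the authors aligned short reads to mm9 with TopHat (1.4.0) and estimated levels with Cufflinks, whose version is not given in the sources used here. The values deposited per gene are FPKM, without counts. Tables were joined on the gene symbol, keeping the highest row of a repeated symbol, and 1 was added to each 0-based start. A gene not listed was given no ratio, and one listed in KO alone at 1 FPKM or more counted as higher. For medians of lists 0.1 FPKM was added. Fragments were estimated from FPKM, the longest transcript (NCBIM37) and the step of low values (70.5% and 71.4% of low genes within 5% of a step), and 95% Clopper-Pearson intervals were made from them. The estimate is too high where the longest transcript is not the one expressed. With 1 library per genotype no test was run. The analysis used Python 3.11.15, pandas 2.3.3, numpy 2.4.6, scipy 1.17.1 and matplotlib 3.10.9.

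Every member that reached 1 FPKM in either library was to be named with both values, and lower ones by count and range with a few named. Of the other lists, genes past the limits with at least 5 FPKM and the 2 most abundant were to be named, and others named here were chosen after their values were seen. Some genes that this rule takes in are not reported here. The members, lists and role groups were chosen with earlier results of these data known. Alternatives were other minimums, pseudocounts, scalings, limits, and treatments of repeated or overlapping rows. Of 58 members with a transcript, 49 shared no 100-base window with another coding gene, and 6 shared over 5%.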

Additional observations from a re-analysis of the deposited data

How the results depend on the processing

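No paired analysis was possible because each genotype was 1 library. A reversal could be called only for a median, sum or ratio past the fold limits in the main setting, and none of these reversed. Counts, and the medians and sums of the smooth and nonmuscle groups, could not be called reversed. Of the recomputed counts, medians and sums, 221 kept within 1.5 times the count or 0.1 on the log2 scale, while 40 did not. A count of 0 that stayed 0 was taken as kept. Scaling KO to the WT total, to a median ratio of 1 or to the WT upper quartile left the counts of the striated, smooth and nonmuscle groups as they were, while the smooth regulators higher in KO were 3 in place of 4 under the latter pair. The striated count of 19 higher and 1 lower became 26 higher and 5 lower at a minimum of 0.1 FPKM, 12 and 0 at 5 FPKM, 6 and 0 at 1 FPKM in both libraries, 11 and 1 for genes with the same locus bounds, and 20 and 2 at 20 estimated fragments. The count of all genes, 1209 higher and 1047 lower, went from 551 to 2070 higher and from 464 to 1899 lower over these and the other limits. The striated median log2 ratio of 3.56 was 2.73, 4.07, 3.22, 3.32 and 3.32 in the same order, and 2.23 with 1 FPKM added. At 0.1 FPKM and at 20 fragments, the skeletal heavy chain cluster counts as higher under Myh8 and as lower under Myh2. With the same locus bounds, the ratio of sums was 3.94 for striated genes (5.66 with all) and 0.736 for 4 smooth genes (0.905 with all 10), whose median log2 ratio was -0.41 in place of -0.18. Without Des, a choice made after seeing the data, the striated ratio of sums was 12.1.

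Of the other lists, sarcomere genes had 14 higher and 0 lower, which became 26 and 2 at 0.1 FPKM, 5 and 0 at 5 FPKM, 6 and 0 at 1 FPKM in both, 8 with the same bounds and 1 lower at 20 fragments. Myogenic genes (7 higher, 1 lower) had 14 and 2, 2 and 0, and 2 and 0 at the same 3 minimums. Energy genes (2 higher, 1 lower) had 1 higher at 5 FPKM, at 1 FPKM in both and at 20 fragments, and 0 lower at 5 FPKM, with overlapping rows summed, with limits of 2 and 1/2, and with the same bounds. Smooth regulators (4 higher, 0 lower) had 2 higher with 1 FPKM added or limits of 2 and 1/2, and 1 lower at 0.1 FPKM, and nonmuscle contractility genes (2 higher) had 0 with limits of 2 and 1/2. Another minimum, limit or bound changes by construction how many genes can count, and the cause of the other moves was not tested. With 1 FPKM added to both levels, the ratio was 8.75 for Actc1, 3.06 for Actn2, 4.41 for Myog, 3.28 for Myh7, 7.35 for Tnnt3 and 2.26 for Neb. Depth limits the ratios of Actc1 and Actn2, each with about 1 WT fragment, and of Myog with 2, to intervals that begin at 17.4, 10.1 and 6.77.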

Other observations

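The 8819 genes listed in both tables with at least 5 FPKM in KO were ranked by their KO over WT ratio. The contractile genes in the first 20 places were Actc1, Mylpf, Tnnt3, Tnni1, Tnnc1, Tnnt2, Tnnt1 and Acta1, all of them striated. This is a description, as the members were chosen on this contrast. The minimum was set on KO alone, and of these contractile genes only Acta1, at 5.95 FPKM, reached it in WT. The share of contractile genes among all genes ranked was not counted. The first place was that of Trim72, a membrane repair protein of striated muscle that is on none of the lists, at 0.0911 FPKM in WT and 9.55 in KO (ratio 105). H19, an imprinted RNA abundant in embryonic muscle and other embryonic tissues, was at 13.1 FPKM in WT and 75 in KO (5.72). Both were named after their values were seen, and with 1 library per genotype neither difference has a replicate check.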
